A study of Mus musculus with 2 samples.

Results

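The collagens are the structural proteins of the extracellular matrix, and the genes described here are the 42 of 19465 measured genes whose symbol is Col, a number, the letter a and a number, without Col17a1 and Col7a1, which belong to the attachment structures of the epidermis. Their messages were measured by probe-based spatial sequencing of formalin-fixed skin, in 1 section of 10 μm from each of 2 IMQ-treated mice. The control mouse was S1pr2 fl/fl (written f/f in the labels): both S1pr2 alleles carried the sites that Cre cuts, and no Cre was present. The other mouse was S1pr2 fl/fl K14-Cre and had the same floxed alleles plus Cre driven by the keratin 14 promoter, which is active in keratinocytes, so that S1pr2, a receptor for sphingosine-1-phosphate, was to be deleted in the epidermis and not in the fibroblasts, vessels, fat or muscle where most collagen is made. Both mice were 8 weeks old, had their back depilated 1 day before, and received 62.5 mg of 5% imiquimod (IMQ) cream daily for 7 days to induce psoriasis-like inflammation. There was no section without IMQ and 1 section per genotype, called the control and the K14-Cre section from here on, so no difference between them has a replicate check, a p-value or a separation of genotype from animal, section or body site.

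A collagen molecule is a triple helix of 3 chains that are alike or different, and each gene codes for 1 kind of chain. Fibrillar collagens build the cables that give the dermis its strength, network collagens such as type IV form sheets in basement membranes, beaded filaments of type VI surround cells, and fibril-associated collagens (FACITs) sit on the surface of the cables. In skin the fibrillar chains come mainly from dermal fibroblasts, type IV chains also from keratinocytes and vessel walls, and muscle, nerve and tendon have collagens of their own.

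Captured molecules were counted by their unique molecular identifiers (UMIs), and levels are given as CPM, UMIs of a gene per 1000000 UMIs of the same spots. The control section had 5315351 UMIs in 1282 spots, and the K14-Cre section 2845826 in 981, with medians of 3542.5 and 2319 UMIs per spot. S1pr2 itself gave 154 UMIs in the control section (29.0 CPM, 95% interval 24.6 to 33.9) and 54 in the K14-Cre section (19.0, 14.3 to 24.8), and whether its probes lie in the deleted part is not given in the sources used here. In the epidermis spots defined below it gave 14 UMIs (24.6 CPM) in the control section and 2 UMIs (6.06 CPM) in the K14-Cre section. The 2 UMIs did not exceed the 95th percentile of the receptor genes described next, 6 UMIs in those spots. Of the tissue barcodes, 357 were in both files, and the array layouts were the same (14336 of 14336 barcodes). A background of 1226 chemosensory receptor genes, which skin should hardly use, took 2715 CPM in the control section and 7330 CPM in the K14-Cre section (log2 ratio 1.43, 1.40 to 1.46), with a median of 11 and 15 UMIs per receptor gene. The sections also held different tissue: epidermis markers were lower in the K14-Cre section (log2 -1.51, 13 of 14 markers lower) and muscle markers were higher (1.67, all 10). Summed fat and nerve markers were higher (0.82 and 1.11), with 1 of 8 and 2 of 9 lower. The summed dermis markers were level (0.00), but single ones were not. In the K14-Cre section 5 of the 9 were lower, such as Lum (515 and 360 CPM), while Dpt, for example, was higher (594 and 837 CPM). The part of these differences in the collagen ratios between whole sections was not tested, and the values within spots of the same class are given beside them.

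Collagens made up 1.46% of all UMIs in the control section and 2.05% in the K14-Cre section. Of the 42 genes, 40 gave a UMI in the first section and all 42 in the second. The 3 chains of the main skin fibrils, Col1a1, Col1a2 and Col3a1, held 83.3% and 83.0% of the collagen UMIs. In all, 21 members had at least 100 UMIs over both sections and are described by name, and each of these lay above the 95th percentile of the receptor genes in both sections. The other 21 had 0 to 43 UMIs in the control section and 1 to 54 in the K14-Cre section, and 17 of them did not exceed that percentile in both, among them the cartilage collagens Col2a1, Col9a1, Col9a2, Col9a3, Col10a1, Col11a1 and Col11a2. Of those 17, 6 exceeded it in 1 section, Col4a3, Col4a5 and Col6a5 in the control section and Col9a3, Col22a1 and Col25a1 in the K14-Cre section. Values for the other 11 cannot be told apart from background.

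Type I and type III fibrils are copolymers in skin, and Col1a2 and Col3a1 were the closest pair across the spots of the control section. In the K14-Cre section they ranked 3 of 45 pairs, behind the pairs of each with Col1a1, for which no upstream window was available. Their upstream sequences are shown to let these partners be compared. Each is the 250 bases before the RefSeq start on GRCm38.p6, 5′ to 3′, with capitals marking matches to 3 promoter motifs searched on both strands (the TATA box, searched as TATAAA, the CAAT box, searched as CCAAT, and the GC box, searched as GGGCGG, with overlapping matches counted each). The Col1a2 window lies at chr6:4505368-4505617 and the Col3a1 window at chr1:45311288-45311537, both on the plus strand.
Col1a2: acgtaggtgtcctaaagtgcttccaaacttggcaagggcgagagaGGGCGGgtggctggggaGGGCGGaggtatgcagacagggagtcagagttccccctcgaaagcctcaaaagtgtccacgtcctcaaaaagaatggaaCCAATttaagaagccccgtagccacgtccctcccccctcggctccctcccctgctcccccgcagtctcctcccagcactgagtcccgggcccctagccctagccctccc
Col3a1: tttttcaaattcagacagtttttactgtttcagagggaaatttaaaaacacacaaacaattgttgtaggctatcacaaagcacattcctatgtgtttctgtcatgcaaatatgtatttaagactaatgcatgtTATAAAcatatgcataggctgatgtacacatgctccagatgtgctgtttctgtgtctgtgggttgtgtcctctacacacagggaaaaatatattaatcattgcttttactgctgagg
Col1a2 had 2 GGGCGG matches and 1 CCAAT match, at -205 for the first and -109, and no TATAAA. Col3a1 had 1 TATAAA at -117 and neither of the others. Of the 33 members with a window, 20 held GGGCGG (60.6%, against 32.9% of all 27025 windows), 10 held CCAAT (30.3% against 34.5%) and 4 held TATAAA (12.1% against 13.0%). This 1 pair of partners thus differed in all 3 motifs, and a match describes letters only.

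**Figure D1:**
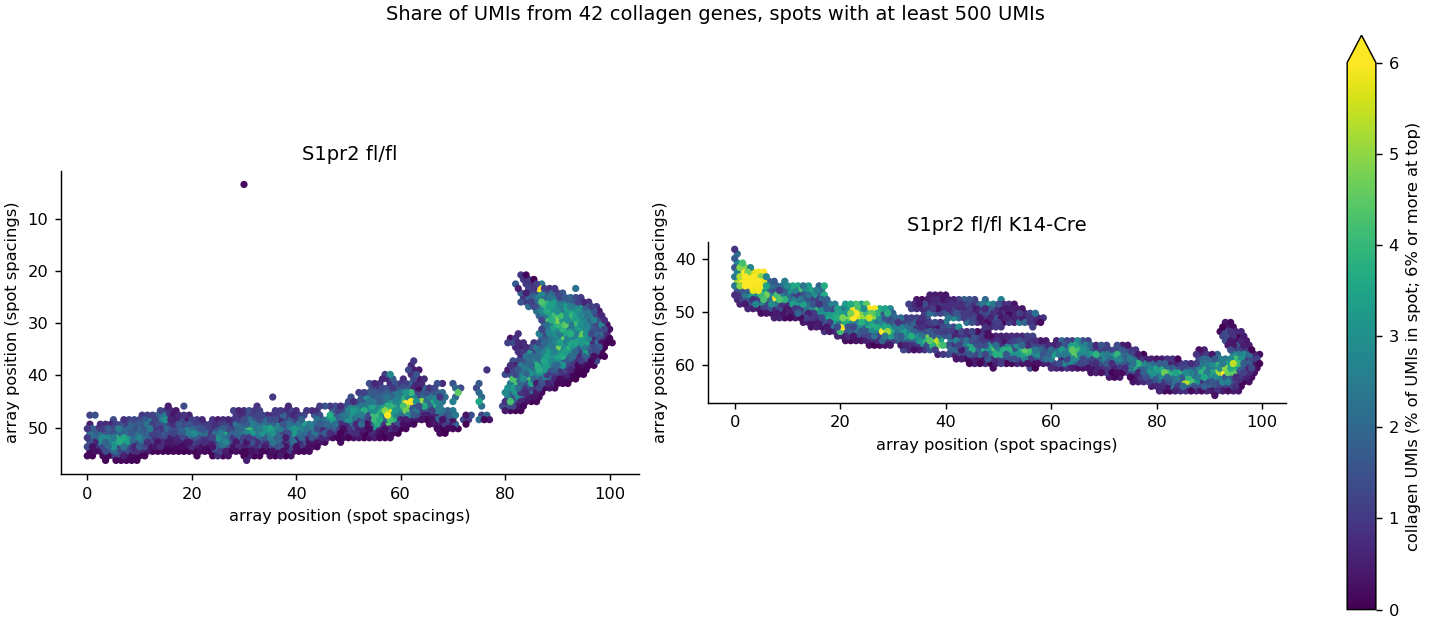
Each point is a spot with at least 500 UMIs at its place on the array (both axes in spot spacings), coloured by the percentage of its UMIs from the 42 collagen genes, in S1pr2 fl/fl (left) and S1pr2 fl/fl K14-Cre (right). The median spot held 1.41% and 1.43%, and 19 spots of S1pr2 fl/fl K14-Cre were at 6% or more, 12 of them in 1 connected group, against 3 spots in S1pr2 fl/fl.

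The map of the collagen share showed a low band along 1 edge, where the epidermis lies, and higher values deeper in the skin. The median spot was alike in the sections, at 1.41% and 1.43% of UMIs. The highest spot reached 6.66% in the control section and 9.50% in the K14-Cre section. The 19 spots at 6% or more in the K14-Cre section made up 2.01% of its spots and held 14.2% of its collagen UMIs, whereas the 3 such spots of the control section held 0.411%. The 10 richest spots of a gene held a larger share of its UMIs in the K14-Cre section, which had fewer spots and UMIs, for 20 of the 21 named genes, and a smaller one for Col6a6 (43.2% and 41.0%). The 10 spots richest in Col1a1 held 4.50% of its UMIs in the control section and 18.0% in the K14-Cre section, and for Col3a1 these shares were 5.22% and 11.1%. For Col4a1 they were closer, at 7.23% and 9.03%. The median spot had 10 Col1a1 UMIs in the control section and 6 in the shallower K14-Cre section, while the highest spot had 92 and 355.

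To see which collagens follow which tissue, spots with at least 500 UMIs were classed by lists of marker genes that hold no collagen: for each of epidermis, dermis, fat, muscle and nerve, the 10% of spots with the highest share of UMIs from the list and at least 3 such UMIs. This gave 109 spots per class in the control section and 94 in the K14-Cre section, and 61 and 79 for nerve. A class is a range of a marker share and not a cell type, and the spots within 10% of the limit numbered 20 to 104 per class, for example 67 and 56 for dermis. A spot can hold several cell types: 33 and 19 of the dermis spots were also fat spots, and 18 and 10 were also nerve spots. At least 2-fold more CPM than in the other spots was shown by 9 and 12 of the 14 epidermis markers in their own class, 9 and 6 of 9 dermis markers, 7 and 8 of 8 fat markers, all 10 muscle markers, and 7 and 8 of 9 nerve markers. The spots were picked by these same markers, so these counts are no independent check of the classes. A member was said to follow a class when it was at least 2-fold over the other spots in both sections, with at least 20 UMIs in each section, which 30 members had. In mixed spots, more cells of a type and more RNA per cell cannot be told apart.

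Collagens were highest in dermis spots, at 30497 CPM in the control section (29959 to 31041) and 36540 in the K14-Cre section (35781 to 37310). Fat spots followed with 24665 and 26425 CPM and nerve spots with 22860 and 24857. Muscle spots had 9176 and 8208, and epidermis spots had the least, 2745 and 4735. This order was the same in both sections, and the counting intervals of neighbouring classes did not overlap. These intervals leave out the spread between spots, and the classes share spots, so they do not measure how well the classes are separated.

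In dermis spots, 4 of 30 members followed the rule (Col3a1, Col5a2, Col4a2 and Col4a5), where 2.81% of all genes did, and 1, the low Col6a5, was at least 2-fold under the other spots, where 3.58% were. The median member stood at log2 0.76 in the control section and 0.59 in the K14-Cre section, against 0.15 and -0.03 for all genes. Col3a1, the chain of type III fibrils, had 12434 CPM in the dermis spots and 4945 in the others of the control section (log2 1.33), and 13821 and 6561 in the K14-Cre section (1.07). Col5a2, a type V chain that is built into fibrils and sets their width, had 792 and 362 CPM in the control section (1.13) and 919 and 458 in the K14-Cre section (1.00). The type I chains came close to the limit without passing it in both sections: Col1a1 stood at 1.17 and 0.97, and Col1a2 at 1.18 and 0.84. Dermis spots thus held 6088 and 7742 CPM of Col1a1. The limit of 2-fold was also missed by Col5a1, the partner chain of Col5a2, with 1.21 and 0.90, and by Col6a3, the large chain of type VI, with 1.07 and 0.90. Col4a5 passed on 5 and 9 UMIs, with a receptor background of up to 4 and 5 UMIs per gene (95th percentile) in the same spots. The members that followed dermis depended on how its spots were chosen. With 20% of spots, or with a mean marker z score, 8 members followed it, both type I chains among them. Of the 4 above, Col3a1 and Col5a2 were in both of these sets, and Col4a2 and Col4a5 were in neither. With 5% of spots Col3a1, Col4a2 and Col4a4 followed dermis, and with spots in exactly 1 class none did.

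Basement membrane chains were high in dermis and fat spots alike, but not only there. The 9 network genes, which include type IV, summed to 839 and 1143 CPM in nerve spots. They had 1013 and 1349 CPM in dermis spots, 981 and 1212 in fat spots, and 494 and 786 in the whole sections. Col4a1 and Col4a2, which form the common type IV molecule, lie head to head on chromosome 8, and their RefSeq gene bodies overlap at the starts. Col4a2 had 365 CPM in the dermis spots of the control section against 159 in the others (log2 1.20), and 443 against 217 in the K14-Cre section (1.03). Col4a1 had 589 against 249 CPM in the control section (1.24) and 625 against 403 in the K14-Cre section (0.63). In fat spots Col4a1 stood at 1.27 and 0.63 and Col4a2 at 0.98 and 1.17. Spot by spot the pair was loosely tied, with a Pearson r of 0.33 and 0.17 over 978 and 870 spots, where all pairs share depth.

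In fat spots, 2 of 30 members followed the rule, Col15a1 and Col4a4, where 2.18% of all genes did. Col15a1, a multiplexin of the outer side of basement membranes, had nearly the same values in both sections, with 152 CPM in fat spots against 68.5 in the others of the control section (log2 1.15) and 151 against 67.9 in the K14-Cre section (1.16). Summed endothelium markers were 2.12-fold and 2.18-fold higher in the same fat spots, and their part in the Col15a1 level was not tested. Col4a4, a minor type IV chain known from kidney and eye membranes, had 12 and 17 UMIs in fat spots (1.39 and 1.52). Its head-to-head neighbour Col4a3 exceeded the receptor genes in the control section alone, with 34 UMIs against a 95th percentile of 22. With 5% of spots Col15a1 no longer followed fat, and with a mean marker z score or spots in exactly 1 class Col4a4 did not. At least 2-fold under the other spots in both sections were 2 members, Col13a1 and Col11a2, against 6.43% of all genes.

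In nerve spots, 3 of 30 members followed the rule, Col13a1, Col27a1 and Col28a1, where 2.02% of all genes did. Col28a1 is known as a collagen of glia and nerve basement membranes, and had the largest value of the 3: 26.7 CPM in nerve spots against 6.48 in the others of the control section (log2 2.04) and 50.8 against 14.2 in the K14-Cre section (1.84). These levels rest on 9 and 12 UMIs. Col13a1, a collagen that spans the cell membrane and is known from nerve-muscle contacts, had 32.6 against 10.3 CPM in the control section (1.66) and 33.9 against 12.3 in the K14-Cre section (1.46), on 11 and 8 UMIs. Col27a1, a fibrillar collagen known from cartilage, had 5 and 8 UMIs there. The 95th percentile of the receptor genes in these spots was 4 and 5 UMIs, so both sections placed each of the 3 above it, in the case of Col27a1 by 1 and 3 UMIs. With 20% of spots Col27a1 was the 1 member that followed nerve spots, and with 5% Col28a1 was the 1 of these 3 that did. Col6a5 was again the 1 member at least 2-fold under the other spots, where 2.72% of all genes were.

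In muscle spots no member followed the rule, where 3.21% of all genes did, and 7 of 30 were at least 2-fold under the other spots in both sections, where 20.7% were (Col4a2, Col4a3, Col4a5, Col16a1, Col18a1, Col24a1 and Col25a1). Col6a6, a type VI chain, had the highest fold of the named members there, at 20.5 CPM against 7.37 in the control section (log2 1.47) and 34.0 against 20.1 in the K14-Cre section (0.76), on 8 and 10 UMIs. The common type VI chains were below the other spots, with Col6a1 at -0.54 and -0.34 and Col6a2 at -0.41 and -0.26. The median of all genes in muscle spots was lower too, at -0.45 and -0.88. Both chains were thus near it in the control section and above it in the K14-Cre section. Col16a1, a FACIT, was low there in both sections, with 5.12 CPM in muscle spots against 38.3 in the others of the control section and 10.2 against 47.6 in the K14-Cre section. Its muscle values did not exceed the CPM of 3 counts in those spots, 7.68 and 10.2.

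**Figure D2:**
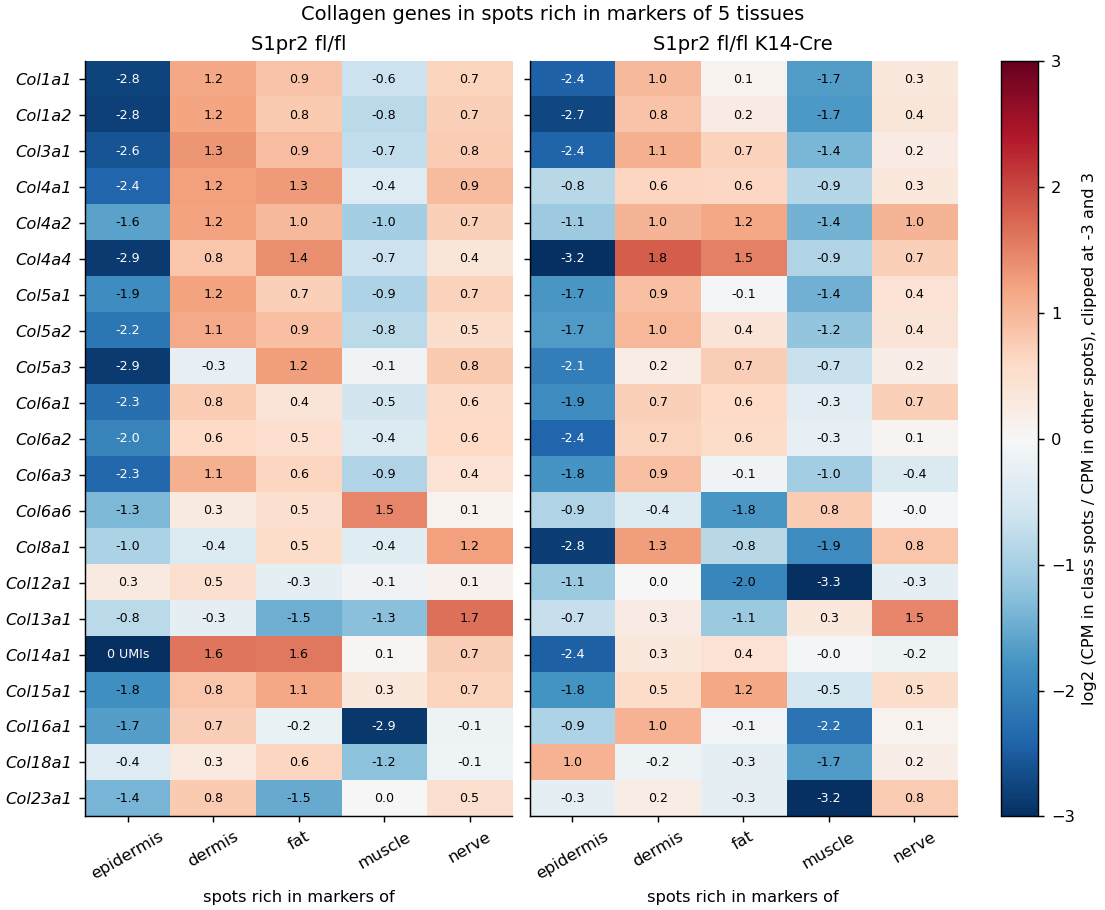
Each cell gives the log2 ratio of CPM in the spots rich in markers of a tissue (columns) over the other spots of the same section, for the 21 collagen genes with at least 100 UMIs (rows), in S1pr2 fl/fl (left) and S1pr2 fl/fl K14-Cre (right). Red is higher and blue lower in the class, colours stop at -3 and 3, and Col14a1 had 0 UMIs in the epidermis spots of S1pr2 fl/fl. The epidermis columns are blue but for Col18a1 in S1pr2 fl/fl K14-Cre (1.05) and Col12a1 in S1pr2 fl/fl (0.26).

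In epidermis spots no member followed the rule, where 2.47% of all genes did, and 15 of 30 were at least 2-fold under the other spots in both sections, where 21% of all genes were. The 15 included the fibrillar chains Col1a1, Col1a2, Col3a1, Col5a1, Col5a2 and Col5a3 and the type VI chains Col6a1, Col6a2 and Col6a3. Col1a2 was lowest among the main chains, at log2 -2.79 and -2.74. Dermis markers were low in these spots too, at 0.108 and 0.202 of their level in the other spots. Col14a1, a FACIT that ties fibrils together, had 0 of 568691 UMIs in the epidermis spots of the control section, which allows up to 5.28 CPM (3 counts), and 11 UMIs or 33.3 CPM in those of the K14-Cre section. Col18a1, the source of endostatin and a part of the basement membrane under the epidermis, stood apart. It had 40.4 CPM in epidermis spots against 53.1 elsewhere in the control section (log2 -0.39) and 75.8 against 36.7 in the K14-Cre section (1.05). It was thus the 1 named collagen with its highest class level in the epidermis of a section, on 23 and 25 UMIs, where a receptor gene had a 95th percentile of 2 and 6 UMIs.

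The distance from the epidermis showed how the collagens were layered. Spots were grouped by the number of steps on the spot grid to the nearest epidermis spot. The epidermis class began at 10.8% epidermis-marker UMIs in the control section and at 5.65% in the K14-Cre section. The spots outside it still held 42886 and 11156 CPM of these markers. The same number of steps is therefore not matched in tissue between the sections. Summed collagens in the control section were at 2745 CPM in the epidermis spots, 9261 at 1 step, 11915 at 2, 18907 at 3 to 4 and 20722 at 5 to 6, and then at 16575 at 7 or more. The K14-Cre section had higher values at each distance, namely 4735, 13710, 21609, 26111, 29098 and 18796 CPM. Both sections therefore had their peak 5 to 6 steps away.

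Single chains had different depths. Col14a1 in the control section had low values in the upper skin, with 8.70 CPM at 1 step, 7.58 at 2, 54.6 at 3 to 4 and 173 (148 to 202) at 5 to 6. In the K14-Cre section it was at 54.8, 103, 189 and 269 (226 to 318). Col14a1 was hence lower near the epidermis than deep in the skin in both sections. Col4a1 peaked at different numbers of steps in the sections. In the control section it was at 58.0 CPM (39.9 to 81.5) in the epidermis spots, 195 (166 to 228) at 1 step, 181 (152 to 213) at 2 steps and 402 (362 to 444) at 5 to 6. In the K14-Cre section it was at 249 (198 to 309) in the epidermis spots, 476 (406 to 554) at 1 step, 647 (562 to 742) at 2 steps and 345 (296 to 400) at 5 to 6. The intervals of the sections were thus apart up to 2 steps and overlapped at 5 to 6 steps. The part of the unlike epidermis classes in this was not tested. The counting intervals leave out the spread between animals, which 1 section each cannot show.

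**Figure D3:**
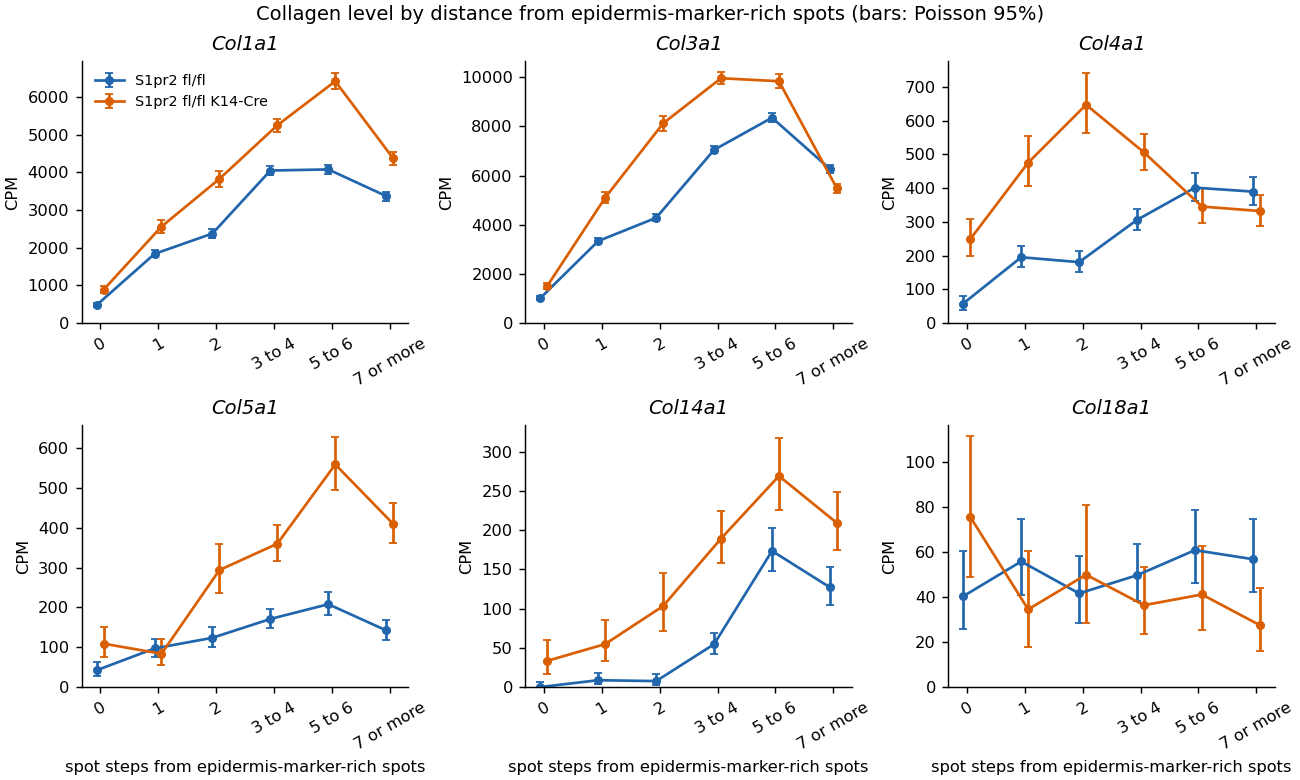
CPM of 6 collagen genes (vertical axes, linear from 0) by the number of spot steps from the epidermis-marker-rich spots (horizontal axes), in S1pr2 fl/fl (blue) and S1pr2 fl/fl K14-Cre (orange), with exact Poisson 95% bars for counting error. Col4a1 peaked at 2 steps in S1pr2 fl/fl K14-Cre (647 CPM) and at 5 to 6 steps in S1pr2 fl/fl (402), and Col18a1 had its highest point in the epidermis spots of S1pr2 fl/fl K14-Cre (75.8).

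The 2 whole sections differed by 1.41-fold in summed collagens, 14570 CPM (14468 to 14673) in the control section and 20524 (20358 to 20691) in the K14-Cre section (log2 0.49, 0.48 to 0.51). By subfamily the log2 ratio was 0.50 for the 11 fibrillar genes, 0.67 for the 9 network genes, 0.25 for the 6 type VI genes and 1.23 for the 9 FACITs. It was 0.33 for the 3 membrane genes, -0.10 (-0.30 to 0.09) for the 2 multiplexins, and 1.20 for the other 2 genes, Col26a1 and Col28a1. With at least 50 UMIs over both sections, 31 members could be compared and 11 could not. At least 2-fold higher in the K14-Cre section were 13 of the 31, where 17.3% of all genes were. None was 2-fold lower, where 5.66% of all genes were. The median member had a log2 ratio of 0.61 and the median gene 0.17. Of the 13, 7 had at least 100 UMIs (Col4a4, Col5a1, Col5a3, Col6a6, Col8a1, Col12a1 and Col14a1), and the other 6 were Col8a2, Col9a3, Col22a1, Col25a1, Col27a1 and Col28a1. Of these 6, Col9a3, Col22a1 and Col25a1 exceeded the 95th percentile of the receptor genes in the K14-Cre section and not in the control section. Of the 21 named genes, 15 had a counting interval above 0 and 1, Col18a1, below it. Only Col8a1 and Col12a1 had an interval above the receptor ratio of 1.43. With the mean count of the receptor genes taken off each gene, the same 13 of 31 members were 2-fold higher, where 16.1% of all genes were. Scaling by TMM (trimmed mean of M values) moved every log2 ratio between whole sections by -0.37 and the median gene from 0.17 to -0.20. The collagen sum was then at 0.12, and the type VI and membrane sums turned to -0.12 and -0.046. With TMM 7 members were 2-fold higher, where 9.93% of all genes were. After spots were thinned to 1000 UMIs the collagen sum was at 0.19 and 1 of 15 members was 2-fold higher, Col14a1, where 5.01% of all genes were.

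Among the main fibril chains, Col1a1 had 2965 CPM (2919 to 3011) in the control section and 4267 (4191 to 4343) in the K14-Cre section, a log2 ratio of 0.53. Col1a2, the second chain of type I, had 3656 and 5596 CPM (0.61), and Col3a1 had 5516 and 7171 (0.38). The type V chains split: Col5a2 had a log2 ratio of 0.33, which turned to -0.044 with TMM, whereas Col5a1 was at 141 CPM (131 to 152) and 336 (315 to 358), a ratio of 1.25 (1.11 to 1.39), and Col5a3, its rarer relative, was at 46.5 and 104 (1.17). Both lost the 2-fold difference with TMM (0.88 and 0.80) and after thinning (0.53 and 0.48). Cut into 4 segments along the section, each K14-Cre segment (200 to 523 CPM) was above each control segment (98.0 to 177 CPM) for Col5a1, in 16 of 16 pairs. The same held for Col8a1 and Col14a1, and for the receptor genes, while Col1a1 was higher in 8 of 16 pairs and the collagen sum in 10. The sum was at 27806 CPM in 1 K14-Cre segment and at 14284 to 16905 in the others. The control segments ranged from 11332 to 18306. That 1 segment also held 124 of the 165 K14-Cre UMIs of Col8a1 and 135 of the 175 of Col12a1. Col12a1 was higher in 11 of 16 pairs. Segments of 1 section are not replicates.

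Of the network, type VI and FACIT genes, Col8a1, a short-chain collagen of vessel walls and remodelled matrix, had the largest ratio among the named genes. It had 53 UMIs in the control section (9.97 CPM, 7.47 to 13.0) and 165 in the K14-Cre section (58.0, 49.5 to 67.5), a log2 ratio of 2.54 (2.09 to 3.01). Col12a1, a FACIT of tendon and of loaded tissue, had 91 and 175 UMIs, which is 17.1 and 61.5 CPM (1.84, 1.47 to 2.23), and 55.4% of its K14-Cre UMIs lay in the developmental muscle spots described further on. Col14a1 had 68.7 and 163 CPM (1.25, 1.05 to 1.45). The type IV chains Col4a1 and Col4a2 stood at 0.61 and 0.43, and the type VI chains at 0.02 for Col6a1, 0.18 for Col6a2 and 0.36 for Col6a3, and with TMM all 3 were below 0, at -0.36, -0.19 and -0.011. Col16a1 (0.29), Col13a1 (0.25), Col15a1 (0.03) and the membrane collagen Col23a1 (-0.03) had intervals that included 0, and all 4 were below 0 with TMM. Col18a1 was the lowest, with 51.7 CPM (45.8 to 58.2) and 41.5 (34.3 to 49.7), a log2 ratio of -0.32.

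Within spots of the same class the collagen sums of the sections were closer in 4 of the 5 classes. The classes were not matched in tissue: their limits were 10.8% and 5.65% of UMIs for epidermis and 9.73% and 17.0% for muscle. With dermis spots chosen by a mean marker z score the log2 ratio was 0.62, above the 0.49 of the whole sections. How close the dermis values were thus depended on how spots were chosen. The collagen sum in dermis spots differed by a log2 ratio of 0.26 (0.22 to 0.30), in fat spots by 0.10, in nerve spots by 0.12, in muscle spots by -0.16 and in epidermis spots by 0.79 (0.68 to 0.89). In dermis spots none of 12 members was 2-fold higher, where 5.93% of all genes were, and in fat spots none of 13, where 5.41% were. In muscle spots 1 of 12 was (Col14a1, 71.7 and 160 CPM, background 3.5%) and in nerve spots 1 of 13 (Col5a1, 219 and 444 CPM, background 7.1%). In epidermis spots 2 of 9 were, where 16.5% of all genes were: Col4a1 with 33 and 82 UMIs (log2 2.10, 1.50 to 2.73) and Col5a1 with 24 and 36 UMIs (1.37, 0.59 to 2.18). No member was 2-fold lower in any of the 5 classes, where 12.1% to 15.7% of all genes were. The receptor genes differed by 2.70 in the epidermis spots, more than either of the 2 collagens. A receptor gene averaged 0.552 UMIs there in the control section and 2.08 in the K14-Cre section, with a highest value of 8 and 34, against the 33 and 82 of Col4a1. Endothelium markers in the same epidermis spots had 51.0 and 152 CPM, and dermis markers 324 and 603 CPM; their part in the Col4a1 level was not tested.

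Most, but not all, of the spots with 6% or more collagen in the K14-Cre section also held messages of developing muscle. Spots with at least 3 UMIs from a list of 8 genes (Myh3 and Myh8, the embryonic and newborn myosins, with Tnni1, Tnnc1, Myl4, Myog, Chrna1 and Chrng) numbered 16 in the control section and 106 in the K14-Cre section, a division chosen after the data were seen. The 106 spots were 11.2% of those with at least 500 UMIs, and held 21.5% of the UMIs of the section and 37.2% of its collagen UMIs. They were deeper, with a median of 4768.5 UMIs against 2187 in the others, and a minimum of 3 UMIs is easier to reach in deeper spots. Of the 19 spots with 6% or more collagen, 12 were among them. The list itself stood at 38.8 CPM in the control section and 641 in the K14-Cre section, and no gene of it was at 0 in either section.

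In these 106 spots, collagens were at 35444 CPM against 16440 in the other spots of the K14-Cre section, and 13 of 35 members were at least 2-fold higher, where 4.72% of all genes were. In the 16 spots of the control section the sum was 16925 against 14518 CPM, and 5 of 30 members were, where 14% of all genes were. The 13 included both type I chains, with Col1a1 at 8458 and 3119 CPM (log2 1.44) and Col1a2 at 10022 and 4383 (1.19), and Col5a1 at 768 and 217 (1.82) with Col5a2 at 948 and 373 (1.34). The 3 common type VI chains were among them too, with log2 values of 1.02 to 1.33. Col8a1 had the highest value of the named genes, 173 against 26.5 CPM (2.70), and Col12a1 followed with 158 against 35.1 (2.17). Col16a1 (1.77), Col13a1 (1.57) and Col14a1 (1.08) were also among the 13. The basement membrane chains were not, with Col4a1 at -0.20 and Col4a2 at 0.21. Markers of tendon and cartilage were 4.29-fold higher in the 106 spots, immune markers 1.54-fold and dermis markers 1.24-fold, and their part in the collagen levels was not tested. The tendon value rests on Thbs4, which gave 432 of the 497 UMIs of that list in these spots, and without it the list was 1.23-fold higher.

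When the developmental muscle spots were left out of both sections, the collagen sum differed by a log2 ratio of 0.18, and 7 of 29 members were 2-fold higher, where 15.1% of all genes were. These 7 were all among the 13 of the whole sections (Col6a6, Col8a1, Col8a2, Col22a1, Col25a1, Col27a1 and Col28a1). Of the other 6, Col12a1 (0.999, 0.54 to 1.45), Col4a4 (0.97), Col14a1 (0.96) and Col5a3 (0.94) were just under a log2 ratio of 1, and Col9a3 (2.77) no longer had the 50 UMIs needed. Col1a1 went from 0.53 to 0.07 and Col5a1 from 1.25 to 0.63. Col8a1 stayed above 2-fold at 1.40 (0.84 to 1.97), and 64.2% of its K14-Cre UMIs were in the spots left out. Its interval included the receptor ratio of 1.43, which is from all spots and so from an unlike set. Col6a1 stood at -0.27 (-0.45 to -0.10) and Col6a2 at -0.19 (-0.31 to -0.07), so both turned below 0, as did Col5a2 (-0.092), Col6a3 (-0.038), Col13a1 (-0.25), Col15a1 (-0.076) and Col16a1 (-0.30). These 7 of the 21 named genes changed sign. Col4a1 was not lower without these spots, at 0.66 against 0.61.

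Spots were also picked by tendon, vessel and smooth muscle markers. Spots with at least 3 UMIs of tendon and cartilage markers numbered 39 and 106, and 5 of 30 members were at least 2-fold higher in them in the control section (9.48% of all genes) and 10 of 35 in the K14-Cre section (4.24%). Thbs4 alone gave 106 of the 420 UMIs of this list in the control section and 660 of the 918 in the K14-Cre section. The K14-Cre spots were thus picked largely by that 1 gene. The 10 were all among the 13 counted for the developmental muscle spots, and both sets included Col11a1, a gene at background. The tendon spots held 2.20-fold and 7.88-fold more developmental muscle UMIs than the other spots. Spots with at least 3 UMIs of endothelium markers numbered 170 and 112. Col4a4 was the 1 of 30 members at least 2-fold higher there in the control section, where 4.51% of all genes were, and it was also among the 4 of 35 in the K14-Cre section (4.73% of all genes), with Col15a1 and 2 genes at background, Col10a1 and Col11a1. In spots with smooth muscle markers, Col8a1 was at least 2-fold higher in both sections, among 3 of 30 members (5.12% of all genes) and 6 of 35 (4.69%). Those spots were deeper than the others, with medians of 5770 and 4255.5 UMIs, and in the K14-Cre section they also held 5.27-fold more developmental muscle UMIs.

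**Figure D4:**
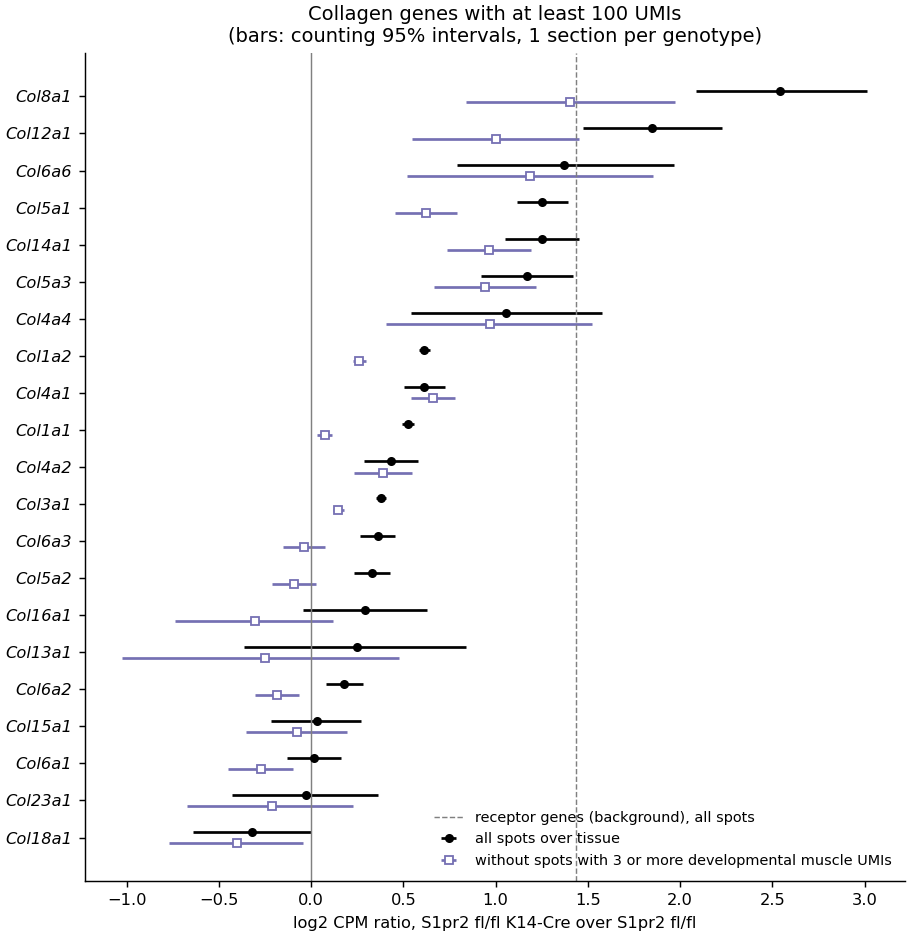
Log2 ratio of whole-section CPM, with S1pr2 fl/fl K14-Cre divided by S1pr2 fl/fl (horizontal axis), for the 21 collagen genes with at least 100 UMIs (rows), with all spots (black circles) and without spots that held 3 or more developmental muscle UMIs (open squares). Bars are counting 95% intervals, and the dashed line is the ratio of the receptor genes over all spots, 1.43. Col8a1 moves from 2.54 to 1.40 and Col1a1 from 0.53 to 0.07, while Col4a1 is at 0.61 and 0.66; TMM scaling would move every black circle by -0.37, which turns 7 of the 21 below 0 (Col5a2, Col6a1, Col6a2, Col6a3, Col13a1, Col15a1 and Col16a1).

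Across spots, the chains of the main fibrils went together. Over 978 spots of the control section and 870 of the K14-Cre section with at least 1000 UMIs, the 10 members with at least 500 UMIs in each section gave 45 pairs. The 3 pairs among Col1a1, Col1a2 and Col3a1 had the highest Pearson r of log2(CPM + 100) in both sections, with Col1a2 and Col3a1 at 0.82 and 0.61, Col1a1 and Col1a2 at 0.80 and 0.64, and Col1a1 and Col3a1 at 0.79 and 0.65. Chains that share a molecule did not as a group stand above others: the 6 pairs of 1 type had a median r of 0.27 and 0.23, and the other 39 pairs 0.34 and 0.24. All values share the depth of the spots, and low counts pull r towards 0.

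The genes that make, cross-link, break down or bind collagen were taken from 3 lists. Of 29 synthesis genes with enough UMIs, 5 were at least 2-fold higher in the K14-Cre section, against 17.3% of all genes, and none lower: the prolyl hydroxylase subunit P4ha3 (log2 1.67), the lysyl hydroxylase Plod2 (1.17), the procollagen proteinases Adamts3 (1.32) and Adamts14 (1.09), and the lysyl oxidase relative Loxl3 (1.65). They had 24 to 59 UMIs in a section. Plod2, with 29 UMIs in the K14-Cre section, did not exceed the 95th percentile of the background receptor genes there (34). The ratios of Plod2, Adamts3 and Adamts14 were below the background ratio of 1.43, and the intervals of all 5 genes included it. The more abundant Serpinh1, the collagen chaperone, stood at 0.42 with 1757 and 1258 UMIs, and Pcolce, which speeds removal of the procollagen tail, at 0.77. Of the 29, 20 had a ratio above 0 and 9 below it, among them Ppib, a prolyl isomerase (-0.81, 1660 and 508 UMIs), Adamts2, a procollagen proteinase (-0.64), and P4hb, a prolyl hydroxylase subunit (-0.21). Of 12 breakdown genes 2 were higher, against 17.3% of all genes, and none lower. The 2 were Timp3, an inhibitor of matrix proteinases (82.2 and 190 CPM, 1.21), and Fap, a fibroblast proteinase (1.40). The interval of Timp3 (1.02 to 1.39) lay below the background ratio, and that of Fap (0.90 to 1.91) included it. The collagen-degrading proteinases Mmp2 (-0.65), Mmp14 (-0.73) and Ctsk (-0.73) had lower CPM in the K14-Cre section without reaching 2-fold, while Mmp8 (0.66), Mmp9 (0.60) and Ctsb (0.15) had higher CPM. Mmp8, with 33 UMIs in the K14-Cre section, did not exceed the background 95th percentile of 34 there. Its interval included 0 (-0.054 to 1.37), and that of Mmp9 began at 0.074. Of the 12, 8 had a ratio above 0 and 4 below it. The median ratio was 0.27 for the 29 synthesis genes and 0.12 for these 12, against 0.17 for all genes. With TMM, Plod2, Adamts3, Adamts14 and Timp3 were below 2-fold. The TMM shift of -0.37 also took Mmp3 (0.11), Timp2 (0.10), Ctsb (0.15) and Mrc2 (0.14) below 0. The ratios of Mmp8, Mmp9, Timp3 and Fap stayed above 0, but with that shift the intervals of Mmp8 and Mmp9 included 0. Among the synthesis genes, Sparc (0.21) and Loxl1 (0.15), for example, turned below 0. Of 6 collagen receptor genes 1 was higher, the inhibitory receptor Lair1 (1.44), against 17.3% of all genes, and none lower. The counts of higher genes in all 3 lists were near that share. The interval of Lair1 (0.89 to 1.99) included the background ratio. All these ratios are from whole sections, with the same differences in tissue makeup.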

How the data were processed

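Spatial gene expression (Visium CytAssist for FFPE tissue) was measured in 1 section per genotype. The files the authors deposited hold unnormalized UMI counts for each gene in each spot over tissue, with the array position of each spot. The file header names Space Ranger 3.0.0 and the submitters' processing notes name mm10. The paper's methods name Partek Flow for the images and reads. The samples were grouped by genotype from the labels.

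Counts were summed over spots and divided by all UMIs of the same spots (CPM) in Python 3.11.15 with numpy 2.4.6, pandas 2.3.3 and scipy 1.17.1, and plotted with matplotlib 3.10.9. The 95% intervals are exact Poisson for levels and exact conditional binomial for ratios. They cover counting error only, and 0 UMIs was taken to allow 3. With 1 section per group there was no test. The procedure was tested on simulated data. Differences were named by size, at least 2-fold with at least 50 UMIs over both sections (between sections) or 20 UMIs in a section (between spots). Genes named are all collagens with at least 100 UMIs over both sections, the others by counts, and pathway genes at 2-fold. Any other gene was named after its values had been seen. The members, marker lists and pathway lists were chosen with earlier results of these data known. Twist2, Actc1 and Hba-a1 were not used here. Coordinates and promoter windows are from RefSeq tables of GRCm38.p6, and 33 of 42 members matched a window. Alternatives were TMM scaling (edgeR 4.0.16, R 4.3.3), the mean count of the background receptor genes (symbols starting with Olfr, Vmn1r, Vmn2r, Tas2r or Taar) taken off each gene, spots thinned to 1000 UMIs, other minimums, other spot classes, and, chosen after the data were seen, leaving out developmental muscle or epidermis spots.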

Additional observations from a re-analysis of the deposited data

How the results depend on the processing

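With 1 section per genotype nothing here has a replicate check, no library could be left out, and ratios between sections carry the differences in tissue, depth and background. The log2 ratio of the collagen sum was positive under every alternative run: 0.49 as reported, 0.12 with the TMM factor, 0.59 with the receptor background taken off, 0.19 with spots thinned to 1000 UMIs, and 0.18 without developmental muscle spots. The TMM factor moved the median of all genes from 0.17 to -0.20. In dermis spots the sum was 0.26 as reported, 0.39 with 20% of spots, 0.12 with 5% and 0.62 with a mean marker z score. The 13 members at least 2-fold higher were 7 with TMM (9.93% of all genes) and 1 of 15 after thinning (5.01%). They were 7 of 29 without developmental muscle spots (15.1%) and 11 of 28 without epidermis spots (14%). The count stayed at 13 with the receptor background taken off (16.1%) and with spots of at least 500 UMIs (17.1%). It was also 13 with connected groups of at least 20 spots (17.3%). A minimum of 200 UMIs gave 5, and a minimum of 20 UMIs gave 17. For these 2 minimums and for the other spot classes below, no share of all genes is given here. Members 2-fold lower numbered 0 under each alternative. Dermis was followed by 4 members, or by 8 with 20% of spots, 8 with the z score and 0 with spots in exactly 1 class. Col3a1 and Col5a2 were the members of the 4 that stayed in both sets of 8. With 5% of spots dermis was followed by 3, namely Col3a1, Col4a2 and Col4a4. Fat was followed by 2, or by 1 with the z score and 1 with spots in 1 class (Col15a1 in both). With 5% of spots it was followed by 2 as well, but these were Col4a4 and Col25a1. Muscle was followed by 0, or by 1 (Col6a6) with 20% of spots. Nerve was followed by 3, or by 1 with 20% and 2 with the z score. With TMM and without developmental muscle spots, 7 of the 21 named members changed sign. These were Col5a2 (-0.044 with TMM, -0.055 thinned, -0.092 without developmental muscle spots), Col6a2 (-0.19, -0.020 and -0.19), Col6a3 (-0.011 with TMM and -0.038 without those spots), Col6a1 (-0.36 and -0.27), Col13a1 (-0.13 and -0.25), Col15a1 (-0.34 and -0.076) and Col16a1 (-0.078 and -0.30). Thinning also turned Col15a1 (-0.23), Col16a1 (-0.038) and Col23a1 (0.23), and taking off the receptor background turned Col13a1 (-0.15). The cause was not tested. No paired analysis was possible because each genotype has 1 section and the labels carry no replicate numbers.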
